A study of Mus musculus with 10 samples.

Results

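The genes described here are 47 components of the Wnt pathway: ligands, receptors, secreted and membrane modulators, and intracellular effectors. They were chosen by gene symbol, with earlier results of these data known. All 47 had at least 1 read in the mRNA-seq libraries, out of 18345 genes with a count. The filter on low counts kept 41 of them, out of 14009 genes tested. The cells were adipocyte precursors (APs), the progenitors of fat cells, from the subcutaneous white adipose tissue of C57BL/6 J mice. They were isolated by depleting CD45- and CD31-positive cells and selecting SCA-1-positive cells, and were then cultured. IL-4, a cytokine of type 2 immunity, was added to the medium of 3 cultures (libraries 4, 5 and 6), and 3 control cultures had none (libraries 1, 2 and 3), all harvested for mRNA-seq on day 4. Small RNA was sequenced from day 2 cultures, 2 without and 2 with IL-4. The series describes the replicates as biological, but the age and number of the mice and the dose of IL-4 are not given in the sources used here, so the p-values measure the spread between these cultures.

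Wnt ligands are secreted lipid-modified proteins that bind Frizzled receptors together with the coreceptors LRP5 or LRP6. In the canonical branch this stops a destruction complex of AXIN, APC and GSK3β from marking β-catenin for degradation, and β-catenin then acts on target genes with TCF/LEF factors. Other branches run through Frizzleds and the receptors ROR1, ROR2 and RYK without β-catenin, and canonical Wnt activity is known to hold back the differentiation of fat cell precursors.

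The mRNA-seq libraries held between 28526832 and 29057808 expected counts. The 10 top genes held 9.14% to 9.59% of a control library and 13.8% to 15.5% of an IL-4 library. Libraries were therefore scaled by the TMM method, with which the log2 fold change of the median gene was 0.0026. Scaling by library totals alone moved every log2 fold change by about -0.17. Control library 3 and IL-4 library 6 stood apart from the others of their groups, with median deviations of -0.11 and -0.23 (log2) for genes with transcripts over 5 kb. The 10 markers of APs summed to 1102 to 1148 FPKM in control and 1140 to 1212 in IL-4 libraries, most of it from Thy1, Itgb1, Pdgfrb and Ly6a. Of the 10, Cd34, Pi16, Ly6a and Pdgfra rose and Pdgfrb and Dlk1 fell. Cd34 was at 3.37 FPKM in control and 30.3 in IL-4 libraries and Pi16 at 0.79 and 11.4 FPKM, while Dpp4, Dlk1 and Cd24a stayed under 2 FPKM in every library. The 17 macrophage markers summed to 4752 to 6225 FPKM in control and 1963 to 2662 in IL-4 libraries, and 14 of the 17 fell while 1 rose. Lyz2 had the highest FPKM of them, a mean of 2739 in control and 776 in IL-4 libraries, and Mrc1 was the marker that rose. All 6 markers of pericytes and smooth muscle fell, from 813 to 857 FPKM in sum to 251 to 289, most of it from Acta2. Markers of mature fat cells summed to 33.4 to 39.3 FPKM in control and 57.1 to 80.3 in IL-4 libraries, most of it from Fabp4. The 2 tested, Fabp4 and Plin4, were higher. Adipoq was at most at 0.39 and Plin1 at 0.04 FPKM, and Lep, Cidec and Retn were unread in every library. Mesothelial markers summed to 6.38 to 7.32 FPKM in control and 9.75 to 11.4 in IL-4 libraries, most of it from Krt19. The 2 tested, Krt19 and Wt1, were higher. Msln, which was not tested, had 13, 10 and 7 reads in control and 0, 4 and 3 in IL-4 libraries. Upk3b, also untested, had at most 2 reads, and only in control libraries. Schwann cell markers summed to 14.0 to 15 FPKM in control and 6.80 to 8.03 in IL-4 libraries (3 of 5 lower, 1 higher), and endothelial markers to 14.3 to 15 and 15.1 to 17.3 (3 of 8 lower, 2 higher). Of the endothelial markers, Vwf rose from a mean of 0.80 to 5.97 FPKM and Tek from 2.92 to 4.56, while Cdh5, Tie1 and Emcn fell. In bulk cultures, fewer cells of a type and less RNA per cell cannot be told apart, and the part of these cells in the values below was not tested.

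With IL-4, Wnt genes changed in both directions in nearly every role. Of the 41 tested genes, 11 (26.8%) were higher with IL-4, against 19.0% of all genes tested, and 19 (46.3%) were lower, against 18.4% (quasi-likelihood test of edgeR, p-values adjusted by Benjamini-Hochberg over 14009 genes, threshold 0.05). The other 11 did not pass the test. Beyond a log2 fold change of 1, Wnt2, Fzd4, Fzd9, Axin2 and Tcf7l1 were higher (5 genes, 12.2%, against 5.77% of all genes). Dkk2, Tcf7, Frzb, Rspo2, Wnt6 and Fzd6 were lower beyond that size (6 genes, 14.6%, against 5.26%). The groups did not overlap for 32 of the 41 genes (78.0%, against 50.4% of all genes). The median log2 fold change of the 41 genes was -0.19. With library totals alone the counts became 9 higher and 20 lower, while those of all genes turned from 2663 higher and 2582 lower to 1704 and 4963.

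**Figure D1:**
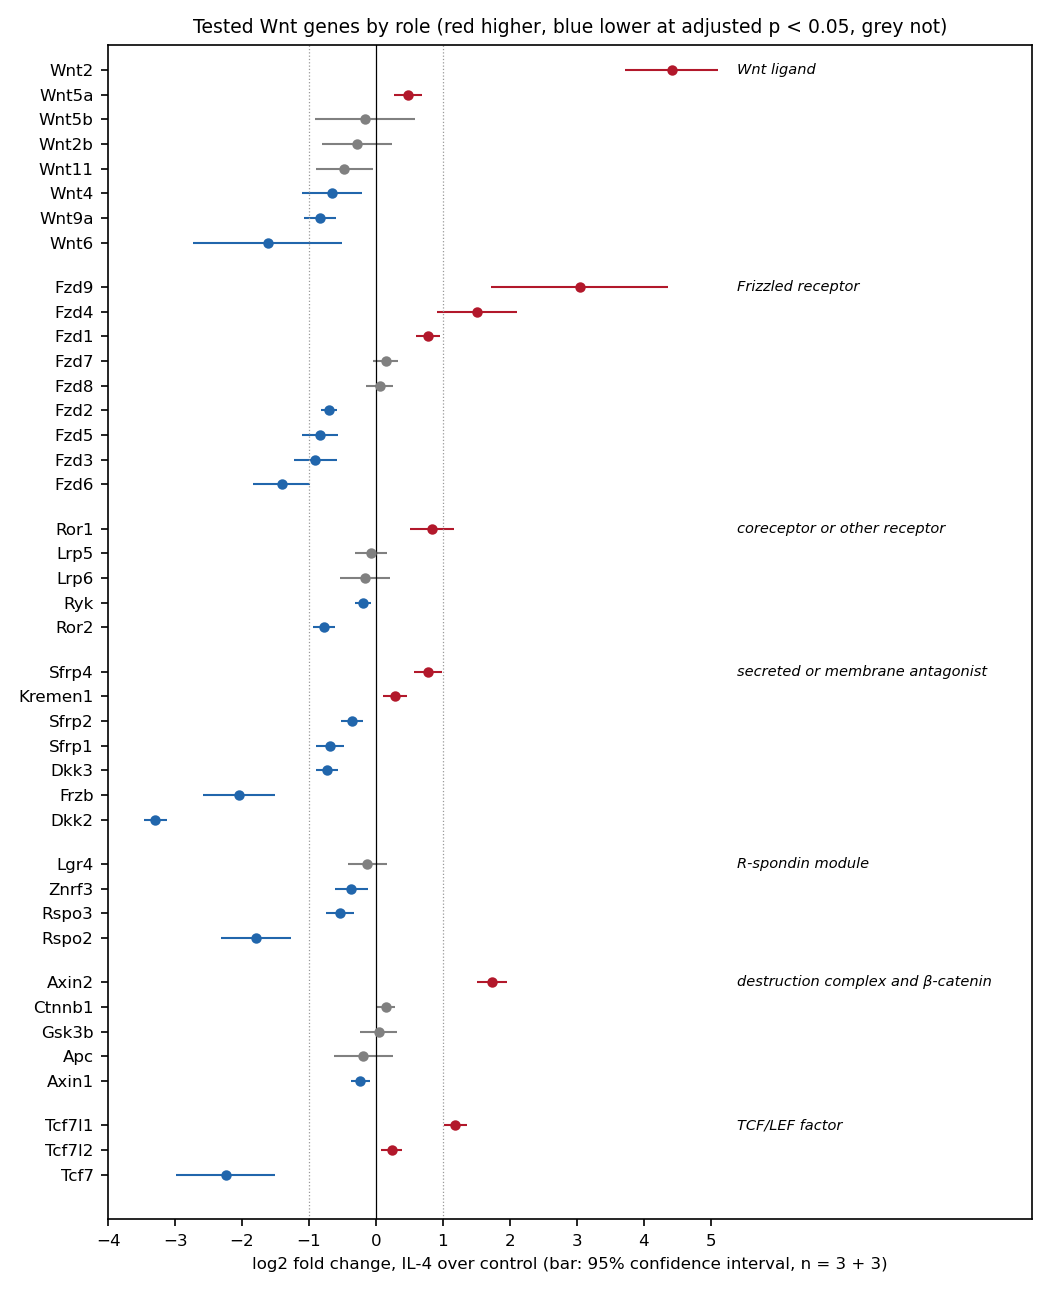
Log2 fold change (IL-4 over control, horizontal axis) of the 41 tested Wnt genes, grouped by role, from edgeR's fit to 3 control and 3 IL-4 libraries. Points are estimates and bars 95% confidence intervals, red for genes higher and blue for genes lower at an adjusted p under 0.05, and grey for the other 11. Wnt2 at 4.42 and Dkk2 at -3.29 lie at the ends, and each role group except the R-spondin module holds genes on both sides of 0.

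Among the 9 ligands, 2 rose (Wnt2 and Wnt5a) and 3 fell (Wnt4, Wnt6 and Wnt9a). Wnt2, a ligand mostly known for canonical signalling (Entrez gene 22413, chromosome 6, 17985474 to 18032772 of GRCm38), was read 17, 4 and 10 times in controls and 167, 215 and 221 times with IL-4. Every IL-4 library was far above every control library. This was a log2 fold change of 4.42 with a standard error (SE) of 0.30 (adjusted p = 1.55e-05), a 21.4-fold rise from 9.79 ± 6.17 to 212 ± 29 normalized counts (SD, n = 3 each). Per transcript length, Wnt2 nevertheless stayed below Wnt5a, at 3.38 ± 0.49 FPKM with IL-4 against 9.95 ± 0.82 FPKM (SD, n = 3).

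Wnt5a, the typical ligand of the branches without β-catenin, was the member ligand with the highest FPKM in every library. Its reads were 934, 950 and 951 in control and 1255, 1243 and 1042 in IL-4 libraries. The groups were apart, with IL-4 library 6 closest to the controls, and the log2 fold change was 0.48 (SE 0.09, adjusted p = 0.0044). Wnt5a held much the same share of the FPKM summed over the 9 ligands, 62.7% ± 2.23 in control and 62.5% ± 3.66 in IL-4 libraries (SD, n = 3). The share of Wnt2 was 1.37% ± 0.87 in control and 21.3% ± 3.10 in IL-4 libraries. These shares leave out Wnt16, a ligand outside the 47 genes. Over all 16 ligands listed, Wnt16 included, the share of Wnt5a was 28.3% ± 1.78 in control and 45.5% ± 2.43 in IL-4 libraries, and that of Wnt16 was 54.2% ± 2.62 and 26.5% ± 0.42.

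Wnt9a, second to Wnt5a among the 9 ligands in control libraries, fell from 216 to 251 reads to 111 to 126 (log2 fold change -0.84, adjusted p = 0.00045). Its share of the ligands' FPKM was 19.6% ± 1.03 in control and 7.89% ± 0.33 in IL-4 libraries (SD, n = 3). Wnt6 (Entrez gene 22420, chromosome 1, 74754342 to 74785322), a ligand known to hold back fat cell differentiation, had 12, 14 and 26 reads in control and 4, 8 and 3 in IL-4 libraries. Its log2 fold change of -1.61 (SE 0.48, adjusted p = 0.031) rested on these few reads and lost its call without control library 2 or 3 or IL-4 library 4 or 6, with adjusted p from 0.051 to 0.094. Without control library 3 and IL-4 library 6 together it was -0.94 (adjusted p = 0.14). Wnt4 fell from 47 to 55 reads to 23 to 34 (log2 fold change -0.66, adjusted p = 0.029), a call that DESeq2 did not make (adjusted p = 0.058) and that was lost without control library 1 or 2 or IL-4 library 4 or 5 (adjusted p from 0.058 to 0.10). Wnt11 had 35 to 42 reads in control and 24 to 25 in IL-4 libraries, with no overlap, at an adjusted p of 0.077. It passed the test when libraries were scaled by their totals (adjusted p = 0.021). Wnt2b (log2 fold change -0.28, 95% confidence interval -0.80 to 0.25) and Wnt5b (-0.16, -0.90 to 0.58) did not pass the test, and Wnt10b, best known for restraining fat cell formation, had 3 to 10 reads per library and was not tested.

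The 9 Frizzled receptors were split, with 3 higher (Fzd1, Fzd4 and Fzd9), 4 lower (Fzd2, Fzd3, Fzd5 and Fzd6) and 2 not past the test (Fzd7 and Fzd8). Fzd2 and Fzd1 had the highest FPKM of the family, and their order turned around. Fzd2 was at 51.0, 50.6 and 50.8 FPKM in control and 27.6, 27.3 and 28.3 in IL-4 libraries. Fzd1 was at 27.6, 27.6 and 25.4 FPKM in control and 42.1, 42.7 and 37.8 in IL-4 libraries. In reads, Fzd2 went from 5200, 5143 and 5195 to 2839, 2821 and 2931, with a spread between cultures far smaller than the difference (log2 fold change -0.70, SE 0.05, adjusted p = 1.97e-05). The reads of Fzd1 went from 3422, 3410 and 3154 to 5277, 5363 and 4759 (log2 fold change 0.78, SE 0.08, adjusted p = 0.00013). The FPKM summed over the 9 Frizzleds was 116 ± 4.52 in control and 110 ± 8.50 in IL-4 libraries (SD, n = 3), while the share of Fzd2 was 43.9% ± 1.77 in control and 25.4% ± 2.51 in IL-4 libraries. FPKM carry no TMM scaling, so the sums alone do not show which group was higher.

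**Figure D2:**
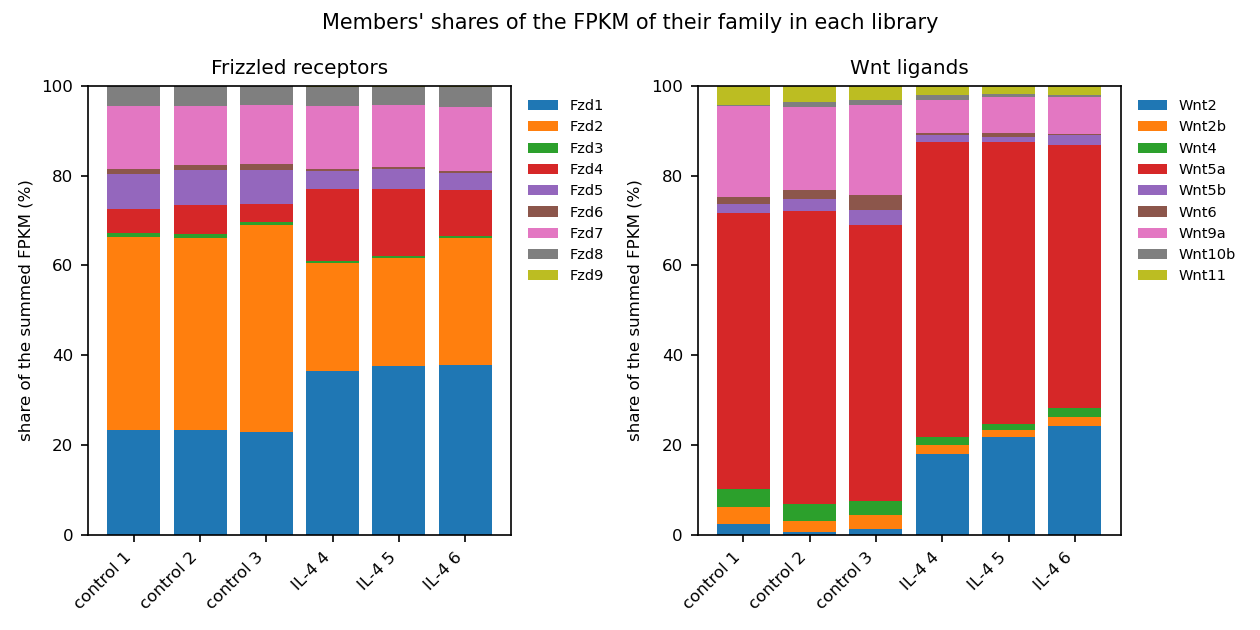
Share (percent) of each Frizzled receptor (left) and each of the 9 Wnt ligands (right, without Wnt16) in the FPKM summed over those genes, one bar per library, 3 control and 3 IL-4 libraries. The share of Fzd1 averages 23.2% in control and 37.3% in IL-4 libraries, and the share of Wnt2 averages 1.37% and 21.3%.

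Fzd4 (Entrez gene 14366, chromosome 7, 89404366 to 89410110), which also serves as the receptor of the ligand norrin, had 641, 782 and 462 reads in control and 1941, 1786 and 1085 in IL-4 libraries. The lowest value of each group was in control library 3 and IL-4 library 6, the libraries in which transcripts over 5 kb were low. Fzd4, at 3685 bases, lies between the lengths compared for that deviation, under 1.5 kb and over 5 kb. The cause of the spread of Fzd4 was not tested. Its log2 fold change was 1.51 (SE 0.26, adjusted p = 0.0025) and 1.55 without those libraries. Fzd9 (Entrez gene 14371, chromosome 5, 135248938 to 135251047) was read 3, 0 and 3 times in control and 20, 12 and 15 times in IL-4 libraries. Over the groups this was 6 against 47 reads, a ratio of 8.72 after scaling (95% exact interval 3.72 to 24.9, counting error only), and the fitted adjusted p was 0.0039. At 0.20 to 0.34 FPKM with IL-4, Fzd9 remained a trace component of the family.

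Fzd6 (Entrez gene 14368, chromosome 15, 39006149 to 39038192), a receptor of the planar cell polarity branch and one the study followed up, had 147, 169 and 155 reads in control and 57, 63 and 39 in IL-4 libraries. The groups were well apart, with a log2 fold change of -1.41 (SE 0.18, adjusted p = 0.00055), which is 2.66-fold lower. It made up 1.18% ± 0.09 of the Frizzled FPKM in control and 0.41% ± 0.07 in IL-4 libraries (SD, n = 3). Fzd5, a receptor linked to canonical signalling, had 1645 to 1817 reads in control and 744 to 973 in IL-4 libraries (log2 fold change -0.83, adjusted p = 0.00079). Fzd3, another receptor of planar cell polarity, fell from 334 to 428 reads to 158 to 203 (log2 fold change -0.90, adjusted p = 0.0014). Fzd7 (log2 fold change 0.15, 95% confidence interval -0.04 to 0.34) and Fzd8 (0.06, -0.15 to 0.26) did not pass the test, but Fzd7 did without IL-4 library 6 (0.22, adjusted p = 0.021).

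Because the study compared Wnt genes with microRNAs of the H19X locus, the 6 major mature strands of that locus are shown with their seeds, nucleotides 2 to 8, in capitals, as RefSeq gives them for GRCm38.p6. No pair shares a whole seed. The seed of miR-503-5p shares its first 6 bases with that of miR-322-5p, and the seed of miR-450b-5p its first 5 with that of miR-450a-5p.
miR-322-5p: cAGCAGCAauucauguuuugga
miR-503-5p: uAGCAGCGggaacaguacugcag
miR-351-5p: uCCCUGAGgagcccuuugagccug
miR-542-3p: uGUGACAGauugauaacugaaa
miR-450a-5p: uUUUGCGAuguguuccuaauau
miR-450b-5p: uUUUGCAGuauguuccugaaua

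On day 2, miR-450b-5p was read 5534 and 5048 times in controls and 23530 and 19693 times with IL-4, in libraries of 23790821 to 32061504 mature reads. miR-322-5p had 57719 and 40177 reads in control and 156462 and 130498 in IL-4 libraries. Both IL-4 libraries were above both control libraries for each of the 6 microRNAs, also when scaled to the library's mature reads. With 2 cultures a group these levels were not tested here.

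The 3′ UTR of Fzd6 (RefSeq transcript model, 1638 bases) holds 2 matches to the whole seed of miR-450b-5p and none to the other 5 whole seeds. For nucleotides 2 to 7 alone it holds 3 matches to miR-450b-5p, 1 to miR-542-3p and none to the other 4. The 3 include the 2 whole-seed matches. The study described several binding sites in Fzd6 for both miR-450b-5p and miR-542-3p. It reported that mimics of either lowered Fzd6 mRNA in APs and the activity of reporters holding parts of the Fzd6 3′ UTR. Of the 2 whole-seed matches, the first starts at base 154 of this UTR model and the second at base 1335. By this numbering the second lies outside the parts that the study gave for its reporters. The matching 7 bases are in capitals within 30 bases of the plus strand, at chr15:39036708-39036714 and chr15:39037889-39037895 of GRCm38.p6.
Fzd6 first match: gtctcccagcaCTGCAAAaggaaaattcac
Fzd6 second match: tgcatctaagcCTGCAAAagaaaatgtgcg

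Fzd4, which rose, has a match to the same seed in the plus strand at chr7:89409731-89409737, shown because the pair moved in opposite directions.
Fzd4 match: agtgaaatgagCTGCAAAgtctaacagcac

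Of the 5 coreceptors and other receptors, Ror1 rose, Ror2 and Ryk fell, and the canonical coreceptors Lrp5 and Lrp6 did not pass the test. Ror1 and Ror2, receptor tyrosine kinases for ligands such as WNT5A, moved in opposite directions. Ror1 had 409, 406 and 339 reads in control and 690, 645 and 509 in IL-4 libraries (log2 fold change 0.83, SE 0.14, adjusted p = 0.0023). Ror2 had 1403, 1236 and 1359 reads in control and 700, 708 and 684 in IL-4 libraries (log2 fold change -0.78, SE 0.07, adjusted p = 6.97e-05). Ror2 kept the higher FPKM, 6.13 ± 0.12 against 3.70 ± 0.57 with IL-4 (SD, n = 3), from 11.9 ± 0.76 against 2.35 ± 0.25 in control libraries.

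Ryk, a Wnt receptor with an inactive kinase domain, had the highest FPKM of this group. Its reads were 6437, 6176 and 6414 in control and 4826, 5000 and 5145 in IL-4 libraries. The groups did not overlap, but the log2 fold change was small at -0.19 (SE 0.05, adjusted p = 0.020) and lost its call in 5 of the 6 fits that left a library out. Lrp5 (log2 fold change -0.07, 95% confidence interval -0.31 to 0.17) and Lrp6 (-0.16, -0.53 to 0.21) overlapped between the groups, at 11.7 to 16.8 FPKM for Lrp5 and 11.2 to 20.4 for Lrp6. Lrp6, at 9368 bases, had its fewest reads of each group in control library 3 and IL-4 library 6.

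Of the 9 antagonists, 7 were tested and all 7 passed the test, with Dkk2, Frzb, Dkk3, Sfrp1 and Sfrp2 lower and Sfrp4 and Kremen1 higher. Dkk2 (Entrez gene 56811, chromosome 3, 132085266 to 132180304), a secreted protein that binds LRP5 and LRP6, had 1830, 1792 and 1973 reads in control and 162, 178 and 172 in IL-4 libraries. The libraries of each group lay close together. Its log2 fold change was -3.29 (SE 0.07, adjusted p = 8.32e-08), which is 9.81-fold lower, from 1770 ± 70.8 to 180 ± 8.68 normalized counts (SD, n = 3 each).

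Frzb (also called Sfrp3; Entrez gene 20378, chromosome 2, 80411970 to 80447396), which binds Wnt ligands in the extracellular space, had 86, 85 and 69 reads in control and 12, 22 and 18 in IL-4 libraries. All IL-4 libraries were below all controls (log2 fold change -2.05, SE 0.23, adjusted p = 0.00026). Sfrp1, a secreted decoy of the same family, was the most abundant antagonist. It had 35355, 36366 and 35117 reads in control and 21068, 20831 and 17623 in IL-4 libraries. It fell by 0.69 on the log2 scale in the fit to TMM-scaled counts (SE 0.09, adjusted p = 0.00057). In FPKM, which carry no TMM scaling, Sfrp1 was at 288 ± 6.04 in control and 158 ± 15.8 in IL-4 libraries (SD, n = 3 each), in both groups above the summed FPKM of all 9 Frizzleds. Its share of the FPKM summed over the antagonists was 70.1% ± 1.03 in control and 66.9% ± 2.38 in IL-4 libraries, and the sum itself was 411 ± 3.71 and 236 ± 15.7 FPKM.

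Dkk3, a divergent Dickkopf protein, had 2693 to 2897 reads in control and 1454 to 1574 in IL-4 libraries (log2 fold change -0.73, adjusted p = 8.85e-05). Sfrp2 changed less, from 2843 to 3319 reads to 2013 to 2257 (log2 fold change -0.36, adjusted p = 0.0052). Sfrp4 moved the other way, with 161, 159 and 164 reads in control and 260, 233 and 256 in IL-4 libraries (log2 fold change 0.78, SE 0.09, adjusted p = 0.00028). At 5.02 ± 0.29 FPKM with IL-4, Sfrp4 was far less abundant than Sfrp1. Kremen1, a transmembrane partner of DKK proteins, had a log2 fold change of 0.29 (adjusted p = 0.020) that lost its call with library totals (0.12, adjusted p = 0.20) and in 5 of the 6 fits that left a library out. Wif1, a secreted Wnt-binding protein, and Notum, an enzyme that removes the lipid from Wnt ligands, had 0 to 3 and 0 to 10 reads per library and were not tested.

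**Figure D3:**
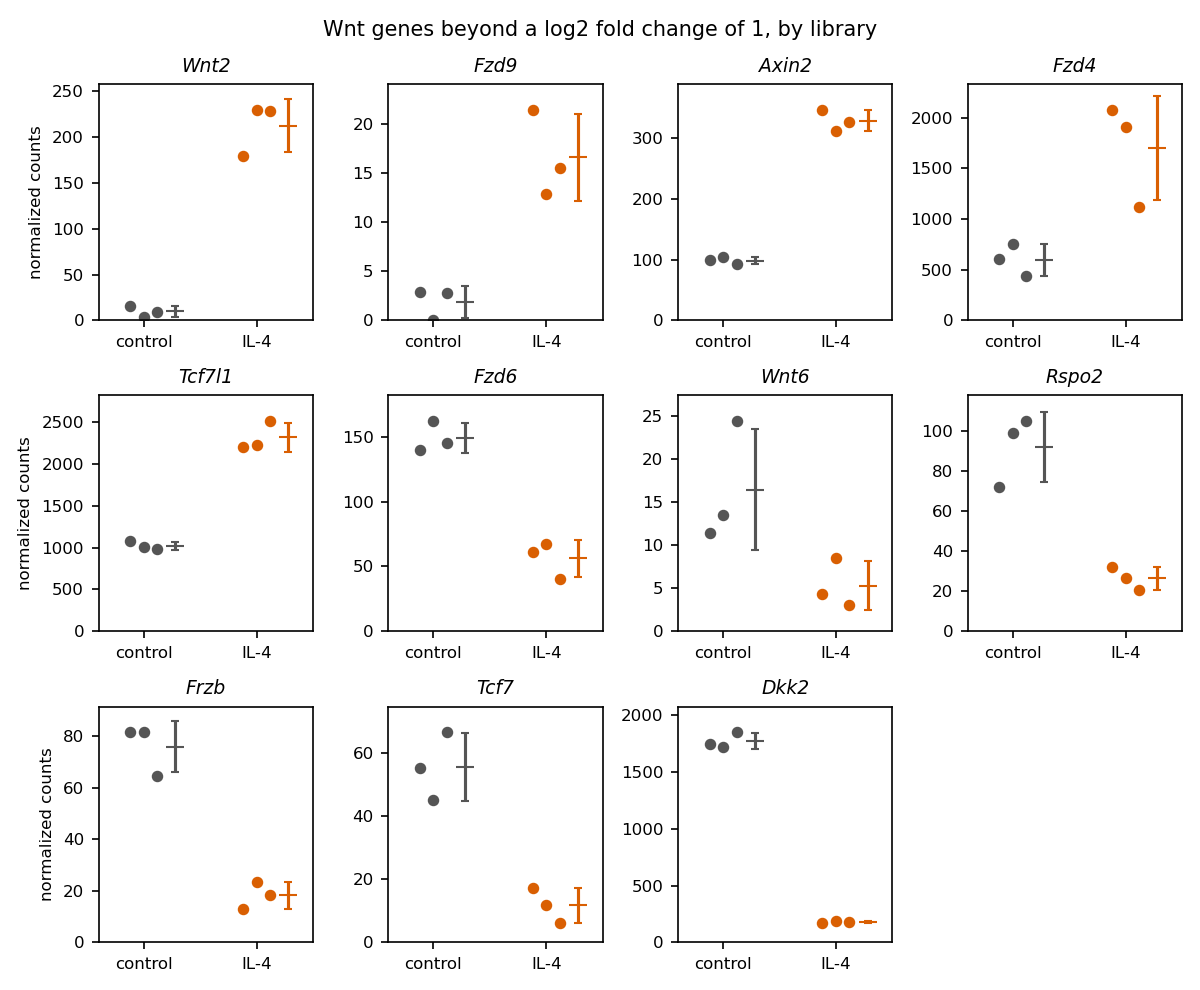
Normalized counts (vertical axes from 0, one scale per gene) of the 11 Wnt genes that changed by more than 1 on the log2 scale, one point per library, grey for 3 control and orange for 3 IL-4 libraries. Horizontal marks with bars are the mean ± SD. The groups are apart in every panel, most narrowly for Wnt6, which has 3 to 8 reads in IL-4 libraries.

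The 3′ UTR of Dkk2 holds 2 overlapping matches to the seed of miR-322-5p, on the plus strand at chr3:132179822-132179828 and chr3:132179825-132179831. They are 3 bases apart and are shown because Dkk2 fell the most of the 47 genes. Frzb has 1 match to miR-503-5p, at chr2:80413307-80413313, and 1 to miR-322-5p, at chr2:80412963-80412969, both on the minus strand.
Dkk2 first match: aaggctaaaccTGCTGCTgcttaagctctt
Dkk2 second match: gctaaacctgcTGCTGCTtaagctcttata
Frzb match to miR-503-5p: tctaagactggCGCTGCTggactaacaaag
Frzb match to miR-322-5p: aagacagcctcTGCTGCTgcgcttatagtc

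No gene of the R-spondin module rose. R-spondins are secreted proteins that raise Wnt sensitivity by binding LGR receptors and drawing the ubiquitin ligases ZNRF3 and RNF43 away from Frizzleds. Of the 6 genes, 4 were tested, and Rspo2, Rspo3 and Znrf3 fell. Rspo2 (Entrez gene 239405, chromosome 15, 43020788 to 43171594) had 76, 103 and 112 reads in control and 30, 25 and 20 in IL-4 libraries. Its highest IL-4 library was below its lowest control library, with a log2 fold change of -1.80 (SE 0.23, adjusted p = 0.00046). Rspo3, the R-spondin with the highest FPKM, had 337, 359 and 369 reads in control and 232, 219 and 210 in IL-4 libraries (log2 fold change -0.53, SE 0.09, adjusted p = 0.0021).

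Lgr4, the R-spondin receptor with the highest FPKM of the module, had 1471, 1513 and 1283 reads in control and 1286, 1235 and 974 in IL-4 libraries. The groups overlapped, with IL-4 library 4 above control library 3 in reads, and the log2 fold change of -0.13 (95% confidence interval -0.42 to 0.16, adjusted p = 0.46) did not pass the test. Znrf3 had 314 to 336 reads in control and 201 to 240 in IL-4 libraries (log2 fold change -0.37, adjusted p = 0.026), and lost its call without control library 1, 2 or 3 (adjusted p from 0.057 to 0.092). Rspo1 (2 to 7 reads per library) and Rnf43 (1 to 4 reads) were not tested.

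In the destruction complex, Axin2 rose while its relative Axin1 fell slightly, and β-catenin and the kinase did not pass the test. Axin2 (Entrez gene 12006, chromosome 11, 108917828 to 108950783) encodes a scaffold of the complex and is itself a widely used target of β-catenin. It had 104, 108 and 99 reads in control and 324, 292 and 317 in IL-4 libraries. Both groups were tight and far apart, with a log2 fold change of 1.74 (SE 0.10, adjusted p = 5.35e-06), a 3.33-fold rise. Axin1 had 1674 to 1870 reads in control and 1315 to 1402 in IL-4 libraries (log2 fold change -0.23, adjusted p = 0.022). The call of Axin1 was lost without control library 1 or 3 or IL-4 library 5 (adjusted p from 0.075 to 0.092). Per length, Axin1 remained the more abundant of the pair with IL-4, at 12.8 ± 0.47 against 2.55 ± 0.14 FPKM (SD, n = 3), from 17.0 ± 0.91 against 0.86 ± 0.04 FPKM in control libraries.

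Axin2 holds 2 matches to the seed of miR-322-5p, the same 7 bases as in Dkk2, on the plus strand at chr11:108949839-108949845 and chr11:108950065-108950071. They are shown because Axin2 rose and Dkk2 fell, and what the matches do in these cultures was not tested.
Axin2 first match: cccccagtttaTGCTGCTttaaacctggaa
Axin2 second match: accccccgccaTGCTGCTctgcttgtcaca

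Ctnnb1, which encodes β-catenin, had the highest FPKM of its group, 198 ± 3.45 in control and 194 ± 6.16 in IL-4 libraries (SD, n = 3). Its reads were 19305, 19901 and 19296 in control and 19634, 19862 and 18612 in IL-4 libraries. After scaling, the IL-4 libraries lay above the controls by 0.15 on the log2 scale (95% confidence interval -0.0017 to 0.29, adjusted p = 0.11), and without IL-4 library 6 the difference passed the test (0.19, adjusted p = 0.011). Apc (log2 fold change -0.19, 95% confidence interval -0.63 to 0.26), the large scaffold of the complex, and Gsk3b (0.04, -0.23 to 0.31), its kinase, overlapped between the groups. Both, at 12453 and 8298 bases, had their fewest reads of each group in control library 3 and IL-4 library 6. These are levels of mRNA, and the stability of the β-catenin protein was not measured by them.

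TCF/LEF factors bring β-catenin to DNA. Of the 4, Tcf7l1 and Tcf7l2 rose, Tcf7 fell and Lef1 was not tested. Tcf7l1, a factor that mostly represses its targets until β-catenin displaces it (Entrez gene 21415, chromosome 6, 72626371 to 72789045), had 1132, 1045 and 1043 reads in control and 2057, 2087 and 2433 in IL-4 libraries. All IL-4 libraries were well above the controls, with a log2 fold change of 1.18 (SE 0.07, adjusted p = 1.06e-05). Tcf7 (Entrez gene 21414, chromosome 11, 52246527 to 52283383), which activates targets with β-catenin and is also a factor of T cells, had 58, 47 and 71 reads in control and 16, 11 and 6 in IL-4 libraries. Its lowest control library held more reads than any IL-4 library (log2 fold change -2.25, SE 0.32, adjusted p = 0.00089). Among lymphocyte markers, Cd3e and Cd3g had no read in any library, and the markers together summed to 1 to 1.26 FPKM in control and 0.30 to 0.49 in IL-4 libraries. Cd4 was the lymphocyte marker that fell, by 2.33 on the log2 scale, and its part in the value of Tcf7 was not tested.

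Tcf7l2, the second factor by FPKM, had 680 to 705 reads in control and 697 to 775 in IL-4 libraries, and its log2 fold change of 0.23 (adjusted p = 0.031) lost its call with library totals (0.06, adjusted p = 0.51) and without control library 1, 2 or 3 or IL-4 library 5 (adjusted p from 0.074 to 0.11). Lef1 had 8, 6 and 5 reads in control and 1, 7 and 6 in IL-4 libraries. Tcf7l1 made up 65.9% ± 1.5 of the FPKM of the 4 factors in control and 80.5% ± 1.76 in IL-4 libraries (SD, n = 3). Tcf7 made up 3.92% ± 0.81 in control and 0.45% ± 0.24 in IL-4 libraries. Without the filter on low counts, the 6 genes left untested (Wnt10b, Wif1, Notum, Rspo1, Rnf43 and Lef1) had adjusted p from 0.34 to 0.89, which at these depths does not show that they were equal.

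Matches to the 6 seeds stood in Wnt genes that rose as well as in those that fell. Of 13371 tested genes with an annotated 3′ UTR, 46.5% held a match to at least 1 seed, and of the 41 tested Wnt genes 25 (61.0%) did. These were 9 of the 11 higher genes, 11 of the 19 lower genes and 5 of the 11 others. The 3′ UTRs of the Wnt genes were longer, with a median of 1730 bases against 1077 for all genes. Fzd3 held 10 matches in 10278 bases, of which some overlap each other, so that 7 remain without overlap, and Lrp6 held 8 in 4310 bases, none overlapping. Fzd3 fell while Lrp6 did not pass the test. Tcf7, Rspo2 and Wnt6, lower beyond a log2 fold change of 1, held no match to a whole seed. Of the genes higher beyond that size, Wnt2 and Tcf7l1 each held 1 whole-seed match to miR-542-3p, and Fzd9 held 1 to miR-351-5p. For nucleotides 2 to 7 alone, Rspo2 held 4 matches to miR-542-3p and 1 to miR-450b-5p. Tcf7 held 1 to miR-542-3p and 1 to the 6 bases shared by miR-503-5p and miR-322-5p, while Wnt6 held none. Wnt2, Fzd4, Fzd9, Axin2 and Tcf7l1, all higher beyond that size, each held at least 1 whole-seed match. A whole-seed match contains the shorter one, so these genes hold the shorter match by construction. A match describes only the letters in the annotated UTR.

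Of 21 Wnt family genes outside the 47, 5 were tested. With so few genes, 1 (20%) was higher, against 19.0% of all genes, and 3 (60%) were lower, against 18.4%. Lgr5, an R-spondin receptor and β-catenin target, had 1046, 1014 and 888 reads in control and 118, 129 and 104 in IL-4 libraries, so the groups were far apart (log2 fold change -2.91, SE 0.12, adjusted p = 1.04e-06). Lgr6 fell less, by 0.71 on the log2 scale (adjusted p = 0.0096). Wnt16 fell from 653 to 769 reads to 254 to 286 (log2 fold change -1.25, adjusted p = 3.12e-05). In control libraries Wnt16 had a higher FPKM than any of the 9 ligands above, 15.5 ± 1.30, and with IL-4 it was at 5.80 ± 0.36 (SD, n = 3). Fzd10 was the gene that rose, from 6 to 8 reads to 41 to 48 (log2 fold change 2.78, adjusted p = 4.70e-05), and is named here although it lies under the level set for naming genes.

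Of 49 other pathway genes, from Dishevelled proteins to cofactors of β-catenin, 48 were tested, and 10 rose (20.8%) and 10 fell (20.8%). These shares are near those of all genes, 19.0% and 18.4%. Apcdd1, a membrane inhibitor of Wnt signalling, had the largest change, with 181, 105 and 166 reads in control and 3890, 3858 and 3594 in IL-4 libraries. It was 27.9-fold higher (log2 fold change 4.80, SE 0.17, adjusted p = 5.24e-07). Gpc6, a glypican, rose by 1.14 and Prickle2, of the planar cell polarity branch, by 1.11 on the log2 scale (adjusted p = 0.00034 and 0.00071). The Dishevelled inhibitor Nkd2 (log2 fold change -1.57), the formin Daam2 (-1.31) and the planar polarity receptor Ptk7 (-1.15) were lower, with adjusted p of 2.80e-05, 4.03e-05 and 3.35e-05. The Dishevelled genes Dvl1, Dvl2 and Dvl3 did not pass the test.

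Known targets of β-catenin and TCF did not move as a block. Of 28 listed targets 21 were tested, and 9 (42.9%) rose while 9 (42.9%) fell, against 19.0% and 18.4% of all genes. Without the targets that are also among the 47 genes, 8 of 18 rose and 7 fell, with a median log2 fold change of -0.0041. Among those that rose were Apcdd1, Axin2 and Nrcam, a cell adhesion molecule, with 225, 267 and 267 reads in control and 2269, 2178 and 1938 in IL-4 libraries (log2 fold change 3.23, adjusted p = 3.67e-07). Among those that fell were Lgr5, Nkd2 and Wisp1, a secreted matricellular protein, with 15550, 16204 and 13987 reads in control and 4578, 4737 and 4084 in IL-4 libraries (log2 fold change -1.62, adjusted p = 6.61e-06). Ccnd1, the cyclin D1 gene that the study followed, had 5962, 6582 and 6341 reads in control and 2434, 2496 and 2316 in IL-4 libraries. No IL-4 library came near a control library, and the log2 fold change was -1.23 (SE 0.07, adjusted p = 5.31e-06).

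**Figure D4:**
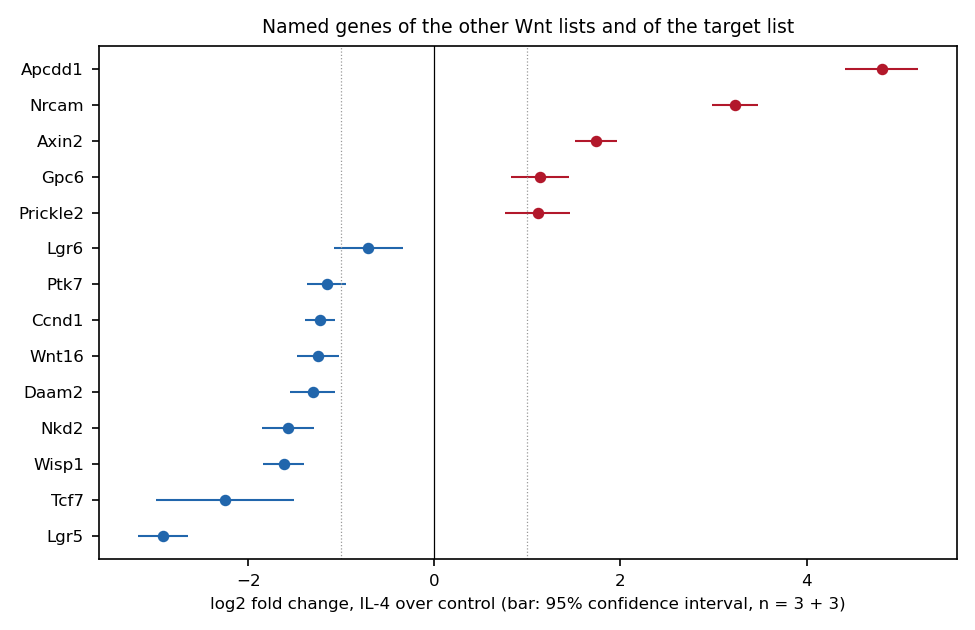
Log2 fold change (IL-4 over control, horizontal axis) of the named genes from the lists of other Wnt family genes, other pathway genes and targets, with Axin2 and Tcf7 as 2 of the 6 listed targets that are also among the 47 genes. Points are edgeR estimates from 3 control and 3 IL-4 libraries and bars 95% confidence intervals, red higher and blue lower. Apcdd1 at 4.80 and Lgr5 at -2.91 lie at the ends, and the targets stand on both sides of 0.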

How the data were processed

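APs were profiled by mRNA-seq (3 control and 3 IL-4 cultures, day 4) and small RNA-seq (2 and 2, day 2). The authors filtered the mRNA reads with SOAPnuke and mapped them to mm10 with HISAT, and their processing notes also list StringTie, Bowtie2 and RSEM. They deposited an RSEM expected count per gene, which is not normalized, and FPKM, which is scaled by transcript length and library size. For small RNA, the deposited raw read counts per mature arm came from the miRDeep2 Quantifier, and these arm columns were read as other text because a cell can hold several values. A gene not listed for a library was taken as 0. Whether counting used strand is not given in the sources used here. Expected counts of 45 of the 47 genes were whole numbers, and those of Wnt4 and Gsk3b were not, since RSEM shared reads. One unnamed row (21 to 65 counts per library, at most 0.00022%) was left out.

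In edgeR 4.0.16 (R 4.3.3), rounded expected counts passed filterByExpr (at least 10 counts, total at least 15) and TMM scaling. Groups were compared with the quasi-likelihood test, adjusted by Benjamini-Hochberg over 14009 genes, with calls at an adjusted p under 0.05. Standard errors and 95% confidence intervals were derived from the F statistic. Normalized counts are counts brought to the mean TMM-scaled library size. FPKM from the deposited files were used only for levels, with no test, and are not TMM-scaled. The depth was about the same in all libraries, so counting error mattered only for genes with few reads, and intervals on reads cover counting error only. The biological coefficient of variation was 0.0939. No pair of replicates agreed within counting noise (2.49 to 46.1 chi-square units per gene). On simulated counts the script was checked for the recovery of known changes.

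The alternatives were DESeq2 1.42.0, relative log expression, upper-quartile and library-total scaling, testing without the filter, testing log2(FPKM + 1) or log2(FPKM + 0.1) with limma 3.58.1, and each library left out in turn. Leaving out control 3 and IL-4 6 together was chosen after seeing the data. Seed matches were searched in the longest RefSeq 3′ UTR of each gene on GRCm38.p6, the assembly of mm10, as the reverse complement of nucleotides 2 to 8, and for the 47 genes also of nucleotides 2 to 7. Python 3.11.15 with pandas 2.3.3 and pysam 0.24.0 was used. The members, the lists of other Wnt genes, targets and markers, and the tests were chosen with earlier results of these data known, and no list was tested as a set. Members past the test with a log2 fold change beyond 1, Fzd6, Axin2 and the gene with the highest FPKM of each role were described in full. Of the other lists, up to 6 called genes with at least 100 normalized counts and the largest change were named, and Ccnd1 because the study followed it.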

Additional observations from a re-analysis of the deposited data

How the results depend on the processing

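Relative log expression and upper-quartile scaling changed no call of the 41 Wnt genes, and neither did testing without the filter. No alternative turned a called gene around. Limma on log2(FPKM + 1), which shrinks genes of low FPKM by its construction, left 2 Wnt genes higher and 1 lower beyond a log2 fold change of 1, and 0 of the other family genes higher. Without the filter, 2 other family genes were higher, both also beyond 1. Scaling that leaves the shift of about -0.17 in place changed the lists more. With library totals, limma on log2(FPKM + 1) and limma on log2(FPKM + 0.1), the median of the Wnt genes was -0.36, -0.26 and -0.37. Other pathway genes were then higher in 4, 4 and 4 cases (1, 1 and 1 beyond 1) and lower in 26, 24 and 24, and targets were higher in 5, 5 and 4. Leaving out control library 3 and IL-4 library 6 together gave 17 lower pathway genes, and the cause was not tested. With each library left out in turn, the median of the Wnt genes ran from -0.26 to -0.18, the higher pathway genes from 4 (without control library 2) to 13 (without IL-4 library 6), and the higher targets from 5 to 7. The numbers of higher and lower Wnt genes ran from 9 to 13 and from 15 to 18. Genes with few reads per library, such as Wnt6 and Fzd9, are limited by counting error. No paired analysis was possible because control mRNA-seq libraries are numbered 1 to 3 and IL-4 libraries 4 to 6, so no number is shared, and the small RNA libraries entered no test.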
